A study of Rattus norvegicus with 12 samples.

Results

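Cyp2e1 (rat gene ID ENSRNOG00000012458) was examined as 1 gene of the 34194 gene IDs in the deposited FPKM values, over all 12 liver libraries of the study. It was chosen by this ID, and the pairing of the ID with the symbol came with that choice and could not be checked here, because neither the deposited values nor the RefSeq gene table pairs Ensembl IDs with symbols. All rats were male Wistar rats of unstated age, 12 assigned to each group at the start and 4 to a cage. Bulk RNA was sequenced from 3 liver samples of each group taken at week 20, each read here as 1 rat. By then the NDEA and NDEA+FYT groups held fewer rats for the count of lesions than had been assigned to them, and how the sequenced livers were picked is not given in the sources used here. The Control group received intraperitoneal saline on the injection schedule and drank water. The model group, NDEA, also drank water and between week 2 and week 9 was given 25 mg/kg of the liver carcinogen N-nitrosodiethylamine (NDEA) into the peritoneum, 2 times weekly. Both tea groups had these injections as well, with green tea infused at 3 g in 100 ml as their drink for 20 weeks. For NDEA+CFT-1 the tea was CFT-1, a variety rich in EGCG, and for NDEA+FYT it was Fuyun6 (FYT), a common variety. The sources used here do not say whether a liver piece held a nodule.

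CYP2E1 is a cytochrome P450 of the endoplasmic reticulum, made mainly by hepatocytes around the central vein, that oxidizes small molecules such as ethanol, acetone and nitrosamines. By hydroxylating NDEA next to its nitroso group, it starts the breakdown of NDEA to an ethylating species that attacks DNA. It takes electrons from cytochrome P450 reductase and in part from cytochrome b5, and it is known for regulation after transcription, so that the transcript and the protein need not move together. The values analysed here are of the transcript, and the protein is not analysed here.

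The DNA just before the start of the gene is shown because the transcript begins there. The RefSeq promoter table matched the symbol to 1 entry of build GRCr8, and the 250 bases before the start lie at chr1:205269717-205269966 on the + strand. The FPKM were made on another build, Rnor_6.0, and no coordinate was used with them. Capitals mark letters that match a TATA box (TATAAA, 49 to 44 bases before the start). They also mark a match to a CCAAT box read on the opposite strand (ATTGG, 86 to 82 bases before the start). Whether either match works as such a box was not tested.

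Cyp2e1: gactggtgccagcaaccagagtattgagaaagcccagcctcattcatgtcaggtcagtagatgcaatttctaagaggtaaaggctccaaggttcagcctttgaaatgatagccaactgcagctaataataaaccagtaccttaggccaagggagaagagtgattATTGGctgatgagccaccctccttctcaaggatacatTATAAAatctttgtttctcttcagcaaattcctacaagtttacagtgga

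These letters are no measurement of binding. Searched on both strands, TATAAA was found in 12.9% and CCAAT in 34.0% of the 33469 promoter windows of this length. GTTAAT, part of the site of the hepatocyte factor HNF1, was found in 6.45% of them and not in the window of Cyp2e1, which says only that these letters are absent from it.

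Cyp2e1 was an abundant liver transcript in every library. By mean FPKM over the 12 libraries it ranked 49 among all 34194 IDs, with a mean of 1669 FPKM. The 12 libraries ranged from 944.7 to 2291 FPKM with a median of 1757, so the highest was 2.43 times the lowest. Cyp2e1 made up between 0.133% and 0.335% of the summed FPKM of a library. FPKM gives fragments per kilobase of transcript relative to all fragments mapped, and the number of reads behind a value is unknown. From the size of 1 read in genes under 0.2 FPKM, depth differed between libraries by up to 1.66 times.

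In the Control livers the deposited level was 2291 FPKM in replicate 1, 2237 in replicate 2 and 1824 in replicate 3. In the NDEA livers it was 944.7, 1944 and 1612 FPKM. With CFT-1 it was 1868, 1118 and 1705 FPKM, and with FYT it was 1769, 1745 and 970.8 FPKM, each in the order of replicates 1, 2 and 3. The 2 highest values were both from Control, and each of the 3 NDEA-injected groups held 1 library well below its other libraries. These low libraries were NDEA replicate 1, NDEA+CFT-1 replicate 2 and NDEA+FYT replicate 3.

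The group means followed the order Control, NDEA+CFT-1, NDEA, NDEA+FYT. The mean was 2117 ± 255 FPKM in Control, 1564 ± 394 with CFT-1, 1500 ± 509 in NDEA and 1495 ± 454 with FYT (SD, n = 3 each). Adjacent groups in this order did not differ beyond their spread, since the 3 injected groups lay within each other's SD and the libraries of Control and NDEA+CFT-1 overlapped. The coefficient of variation was 12.1% in Control, 33.9% in NDEA, 25.2% with CFT-1 and 30.4% with FYT. A difference in spread between groups was not tested.

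**Figure D1:**
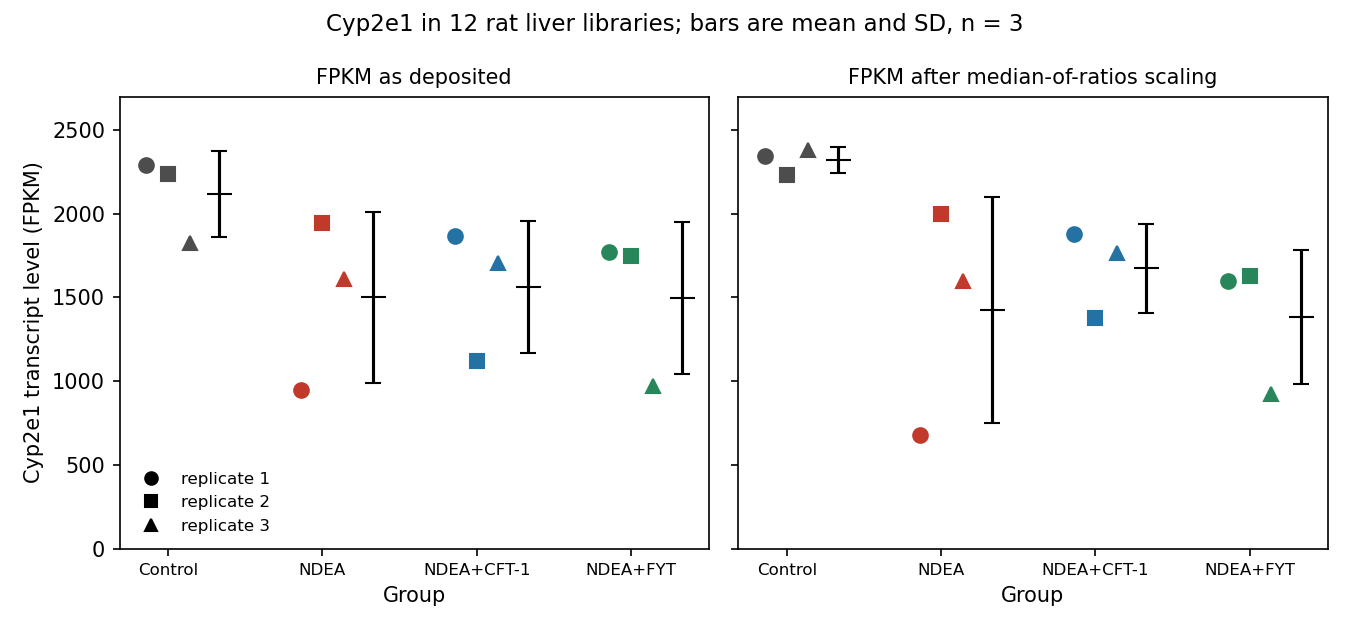
Cyp2e1 level in FPKM (linear axis from 0) in each library by group, as deposited on the left and after median-of-ratios scaling on the right, with mean and SD (n = 3) beside the points. The highest value is from Control in both panels, and 1 library of each injected group lies low, down to 944.7 FPKM as deposited and 678.3 after scaling in NDEA replicate 1.

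The rank of Cyp2e1 within a library does not depend on scaling between libraries. It was 37, 39 and 45 in the Control livers, 111, 46 and 49 in the NDEA livers, 48, 95 and 47 with CFT-1 and 46, 47 and 81 with FYT. The Control ranks were the 3 best of the 12, the worst of them, 45, being 1 place ahead of the next library. Control ranks all better than those of the 9 injected livers were found for 0.464% of the 11854 IDs with a mean of at least 1 FPKM, a comparison made after the ranks were seen. Labels given at random would set the 3 Control libraries first in 1 of 220 assignments, a fraction of 0.004545. The share found is near that fraction. Between 17989 and 20385 IDs were above 0 in a library, and Cyp2e1 was at percentile 99.4 of these or higher in each of the 12. Among Ensembl rat gene IDs alone the ranks were the same, except for 93 in place of 95 in NDEA+CFT-1 replicate 2.

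**Figure D2:**
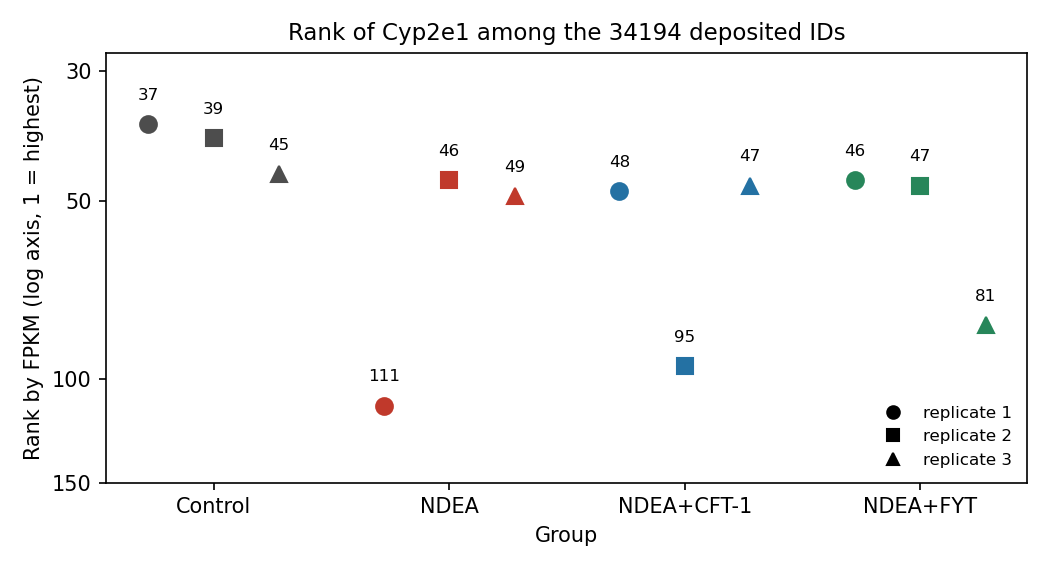
Rank of Cyp2e1 by FPKM among the 34194 deposited IDs (log axis, 1 is the highest FPKM) in each library of the 4 groups. The Control libraries rank from 37 to 45, 6 injected libraries from 46 to 49 and the other 3 at 81, 95 and 111.

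Median-of-ratios scaling sets the libraries on a common scale by the median ratio of genes found in all of them. After it, Cyp2e1 was 2346, 2234 and 2383 FPKM in the Control livers and 678.3, 2001 and 1595 in the NDEA livers. With CFT-1 it was 1880, 1376 and 1765 FPKM and with FYT 1596, 1628 and 920.4 FPKM. The Control livers then lay closer together, within 1.07 times, and all 3 lay above all 9 injected livers, the highest of which was NDEA replicate 2. The same separation in this direction, likewise looked for after the values were seen, was found for 0.43% of these 11854 IDs. This share, too, is near the fraction given above for random labels. The scaled means were 2321 ± 77.6 FPKM in Control, 1674 ± 264 with CFT-1, 1425 ± 678 in NDEA and 1382 ± 400 with FYT (SD, n = 3 each), in the same order as before. The FPKM of a library are divided by its factor, and the factors farthest from 1 were 1.39 for NDEA replicate 1, 0.765 for Control replicate 3 and 0.813 for NDEA+CFT-1 replicate 2. NDEA replicate 1 also had the lowest relative depth of all (1.00) and a median Pearson's r of 0.922 with the other libraries across genes, against 0.958 in NDEA+CFT-1 replicate 2 and 0.965 to 0.978 in the other 10. The part of these library differences in the level of Cyp2e1 was not tested.

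The first comparison asked whether the gene for the NDEA-activating enzyme differed between the saline-injected livers and the NDEA model. Compared with the NDEA group, Cyp2e1 was 1.47-fold higher in Control by the fitted means, and the difference did not pass the test. The log2 fold change of FPKM + 1 was 0.55 (SE 0.320, 95% interval −0.15 to 1.25), with an unadjusted p of 0.111 and a Benjamini-Hochberg adjusted p of 0.524 over 11854 genes by limma. In the exact permutation test of Cyp2e1 alone, 4 of 20 assignments were as extreme (two-sided p = 0.2, where 0.1 is the smallest that 3 against 3 allow, and 0.4 adjusted over the 6 pairs of groups). After scaling, the log2 fold change was 0.84 (SE 0.376, 95% interval 0.01 to 1.67), with an unadjusted p of 0.0467 and an adjusted p of 0.577 in limma's test. The scaled libraries did not overlap, which held in the same direction for 6.69% of the genes tested. Without NDEA replicate 1 the log2 fold change was 0.25 as deposited and 0.37 after scaling. At an adjusted p under 0.05, 0 genes, or 0%, were called in this comparison and in each of the others by limma. An unadjusted p under 0.05 was found for 8.7% of genes between Control and NDEA, 12.6% with CFT-1 and 1.48% with FYT against NDEA, 5.42% between the teas, 3.25% for CFT-1 and 3.8% for FYT against Control. In the bulk values of Cyp2e1 alone, fewer hepatocytes and less Cyp2e1 RNA per hepatocyte cannot be told apart, and hepatocyte markers were not analysed here.

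The comparisons of the tea groups with NDEA asked whether Cyp2e1 differed in the rats that drank tea. With CFT-1 it was 1.06-fold that of the NDEA group, a log2 fold change of 0.09 (SE 0.320, 95% interval −0.61 to 0.79). The adjusted p was 0.916 in limma's test, and the exact permutation test gave a two-sided p of 0.7. With FYT the log2 fold change from NDEA was 0.01 (SE 0.320, 95% interval −0.69 to 0.71), with an adjusted p of 0.9996 in limma's test and a two-sided p of 1.0 in the exact permutation test. Both comparisons use the same NDEA libraries and overlapped with them. The intervals run from 0.655-fold to 1.73-fold for CFT-1 and from 0.618-fold to 1.63-fold for FYT, so changes within these bounds are compatible with the data of 3 libraries a group. After scaling, the log2 fold changes were 0.36 with CFT-1 (SE 0.376) and 0.05 with FYT (SE 0.376). Without NDEA replicate 1 both turned negative, to −0.21 with CFT-1 and −0.30 with FYT as deposited, and to −0.11 and −0.42 after scaling. As deposited, the value with CFT-1 was −0.06 without NDEA+CFT-1 replicate 1, and the value with FYT was −0.14 without NDEA+FYT replicate 1 and −0.13 without NDEA+FYT replicate 2.

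Between the teas, Cyp2e1 was 1.06-fold higher with CFT-1 than with FYT, and the difference was within the spread of the libraries. The log2 fold change was 0.08 (SE 0.320, 95% interval −0.62 to 0.78, from 0.652-fold to 1.72-fold), with an adjusted p of 0.976 in limma's test and a two-sided p of 0.7 in the exact permutation test. It was 0.31 (SE 0.376) after median-of-ratios scaling. Without NDEA+FYT replicate 3 it was −0.20 as deposited and 0.04 after scaling, without NDEA+CFT-1 replicate 1 it was −0.06 as deposited and 0.22 after scaling, and with quantile normalization it was −0.09.

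**Figure D3:**
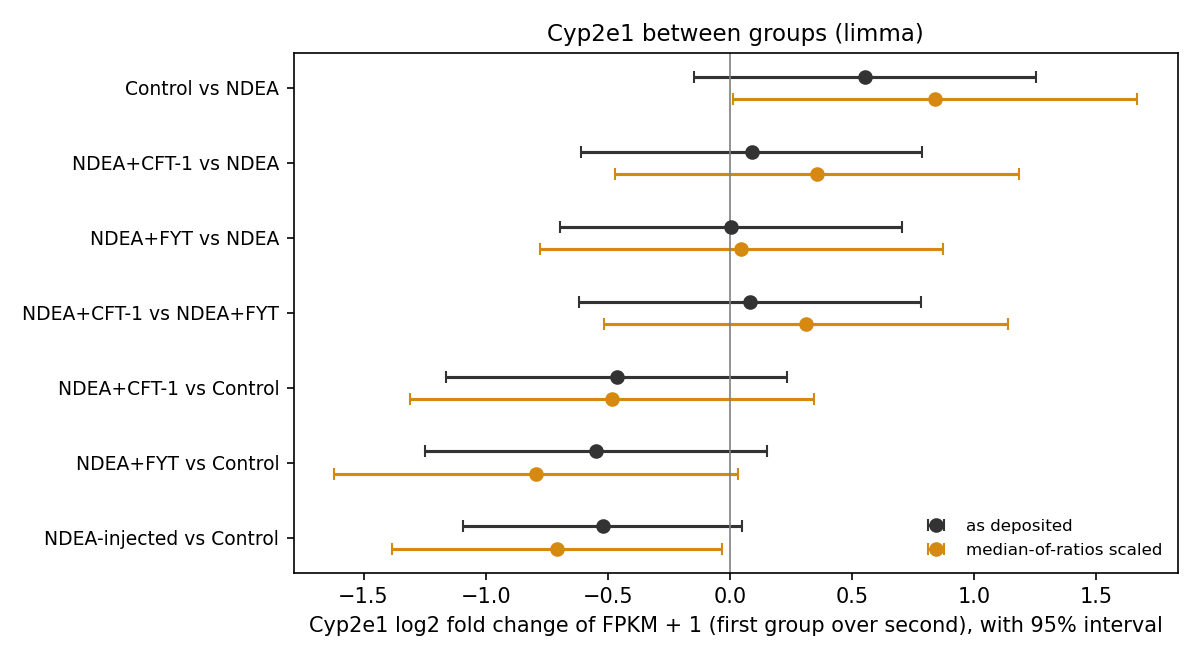
Log2 fold change of Cyp2e1 on FPKM + 1 with its 95% interval from limma for the 6 pairs of groups and for all injected livers against Control, as deposited (dark) and after median-of-ratios scaling (orange). The deposited intervals include 0 throughout, and the scaled intervals for Control against NDEA and for injected livers against Control reach from 0.01 to 1.67 and from −1.38 to −0.03.

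Both tea groups were then set against Control. With CFT-1, Cyp2e1 was 1.38-fold lower than in Control, a log2 fold change of −0.46 (SE 0.320, 95% interval −1.16 to 0.24), with an unadjusted p of 0.174 and an adjusted p of 1.00 in limma's test. The libraries overlapped, and 4 of 20 assignments were as extreme in the exact permutation test (two-sided p = 0.2, or 0.4 adjusted over the 6 pairs). With FYT it was 1.46-fold lower, a log2 fold change of −0.55 (SE 0.320, 95% interval −1.25 to 0.15), with an unadjusted p of 0.114 and an adjusted p of 0.844 in limma's test. All 3 FYT livers lay below all 3 Control livers as deposited, as was the case for 1.52% of the genes tested in this direction, and the two-sided p of the exact permutation test was 0.1, the smallest it can give, or 0.4 adjusted over the 6 pairs. After scaling, the log2 fold changes were −0.48 with CFT-1 and −0.79 with FYT. The scaled libraries did not overlap with Control in either group, in a direction shared by 4.12% of the genes for CFT-1 and 8.65% for FYT. For each of the 3 pairs with Control the scaled exact permutation test gave a two-sided p of 0.1, or 0.2 adjusted over the 6 pairs. Without NDEA+CFT-1 replicate 2 the deposited log2 fold change of CFT-1 was −0.24, and without NDEA+FYT replicate 3 that of FYT was −0.26.

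**Figure D4:**
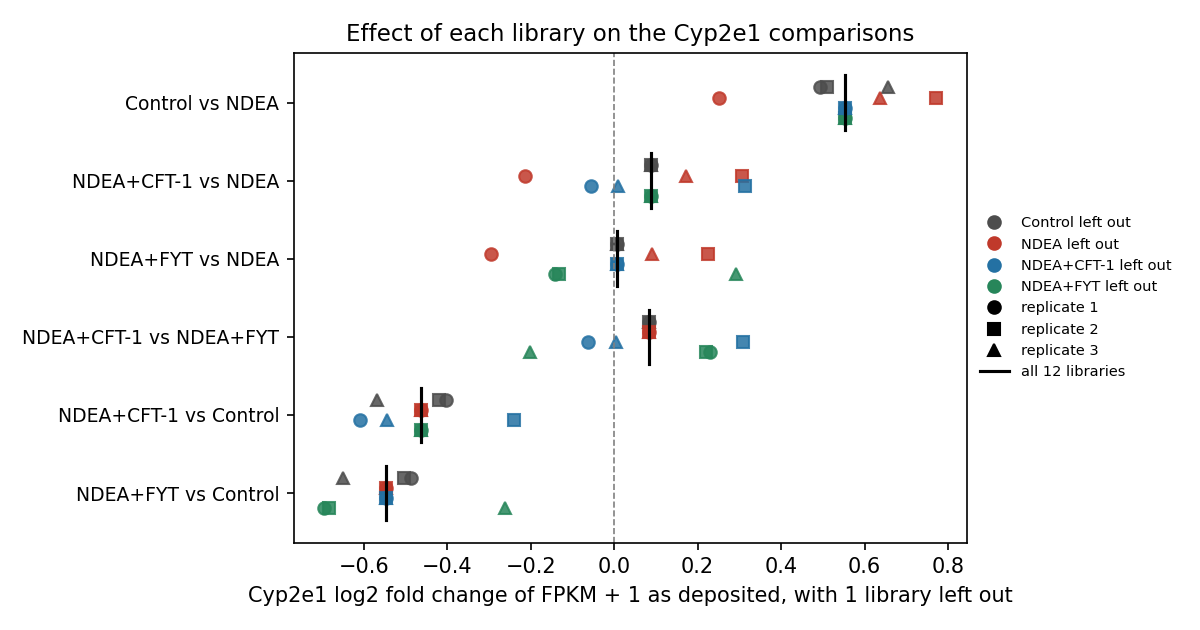
Log2 fold change of Cyp2e1 on FPKM + 1 as deposited for each pair of groups with 1 library left out, where colour gives the group and shape the replicate of that library and the black bar is the value with all 12. Control against NDEA moves from 0.55 to 0.25 without NDEA replicate 1, and the 3 comparisons among injected groups change sign with single libraries.

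The 9 injected livers were also compared as one with the 3 Control livers, a comparison chosen after the values were seen. Cyp2e1 was 1.43-fold lower in the injected livers, a log2 fold change of −0.52 (SE 0.261, 95% interval −1.09 to 0.05), with an unadjusted p of 0.0702 and an adjusted p of 0.822 in limma's test. In the exact permutation test, 14 of 220 assignments were as extreme (two-sided p = 0.0636). After scaling, the log2 fold change was −0.71 (SE 0.307, 95% interval −1.38 to −0.03), the adjusted p was 0.966 in limma's test, and 8 of 220 assignments were as extreme (exact permutation test, two-sided p = 0.0364). Without both NDEA replicate 1 and NDEA+CFT-1 replicate 2 the deposited log2 fold change was −0.35. Over the 4 groups together, the moderated F of limma was 1.36 with an adjusted p of 0.832, and it called 0 of 11854 genes, with 6.22% under an unadjusted p of 0.05. The exact permutation test of Cyp2e1 over all 369600 assignments to 4 groups of 3 gave p = 0.408, and p = 0.177 after scaling.

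Against the other genes tested, the log2 fold changes of Cyp2e1 lay farther out in the comparisons with Control than among the injected groups. Its log2 fold change between Control and NDEA was above that of 98.0% of the genes tested, whose median was −0.20, while 21.0% of genes had a smaller p. For FYT against Control its log2 fold change was above that of 0.768% of genes, whose median was 0.18, and 11.7% had a smaller p. For CFT-1 against Control it was above that of 4.6% of genes, with 12.7% at a smaller p. It was above that of 79.0% of genes for CFT-1 against NDEA, 57% for FYT against NDEA and 84.8% for CFT-1 against FYT, where between 82% and 98.4% of genes had a smaller p. After scaling, which moved the medians of Control against NDEA and of FYT against Control to 0.04 and −0.02, Cyp2e1 was in these comparisons above 98.3% and 0.666% of genes and 7.62% and 3.94% had a smaller p. For CFT-1 against Control it was then above 4.68% of genes, and 21.5% had a smaller p, more than before scaling. Among the injected groups between 49.3% and 89% of genes had a smaller p after scaling. Within groups Cyp2e1 had a residual SD of 0.425 on log2(FPKM + 1), larger than that of 69% of the 200 genes nearest to it in mean level, whose median was 0.333.

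The pattern of Cyp2e1 over the 12 libraries was compared by Pearson's r with the 4801 other IDs of at least 10 FPKM on average, on the scaled log2 values and as a description only. An r of at least 0.9 was found for 9 IDs and an r of −0.9 or below for 1 ID, and the median r was 0.267. The most similar was ENSRNOG00000016807 (r = 0.949, mean 51.9 FPKM), with 26.2 FPKM in NDEA replicate 1 and from 58.2 to 83.9 in Control. The next was ENSRNOG00000031263 (r = 0.948, mean 201.7 FPKM). The most opposite were ENSRNOG00000019741 (r = −0.934, mean 19.6 FPKM) and ENSRNOG00000022448 (r = −0.866, mean 17.0 FPKM). As deposited, ENSRNOG00000019741 had 59.6 FPKM in NDEA replicate 1, 29.0 in NDEA+FYT replicate 3 and from 5.96 to 12.5 in Control, so its 2 highest values came from the libraries with the 2 lowest of Cyp2e1. On the values as deposited r was 0.917 and 0.876 for the similar pair and −0.8004 and −0.569 for the opposite pair. All 12 points share the scaling and the libraries that stand apart, and no symbol is paired with these IDs here.

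**Figure D5:**
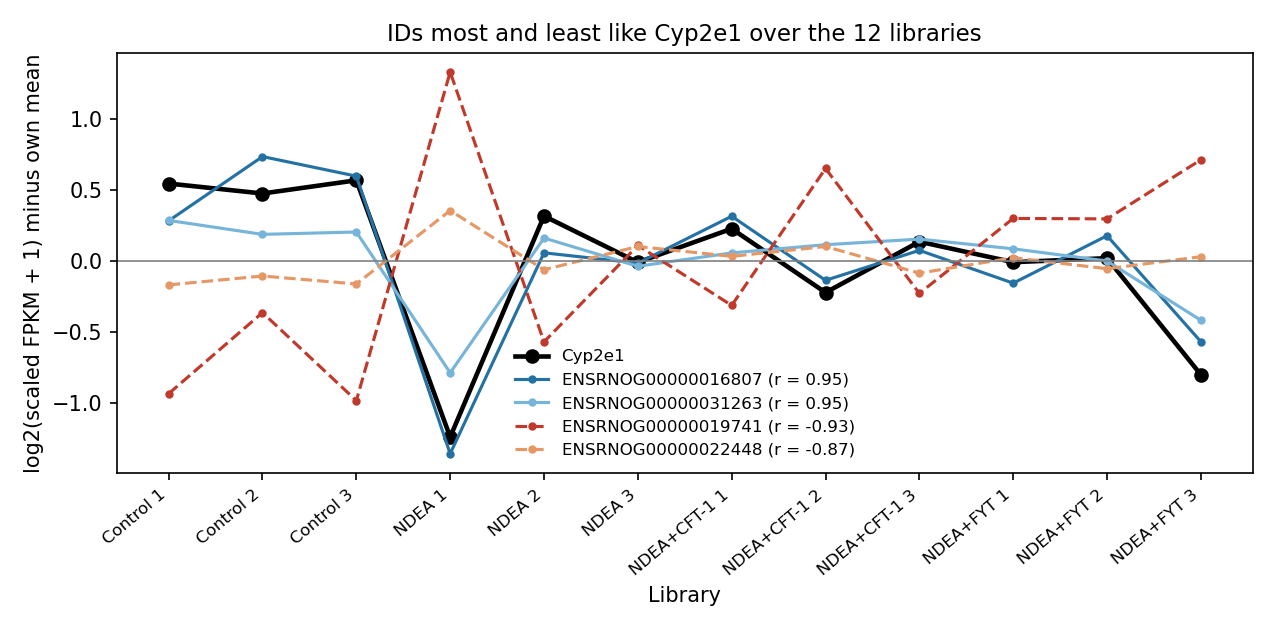
Scaled level of Cyp2e1 (black) and of the IDs most like it (solid blue) and most opposite to it (dashed red and orange) in each library, as log2(scaled FPKM + 1) minus the ID's own mean, with lines only to guide the eye. Cyp2e1 and ENSRNOG00000016807 are lowest, and ENSRNOG00000019741 highest, in NDEA replicate 1.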

How the data were processed

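Liver RNA was sequenced in 12 libraries as paired-end reads. The authors deposited FPKM values, 1 column per library, made from uniquely mapping reads after trimming (Trimmomatic), alignment (HISAT2) and removal of duplicates. HTSeq 0.6.1 and build Rnor_6.0 are named in the submitters' processing notes. The annotation is not given in the sources used here, and a model of counts was not fitted.

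Groups and replicate numbers came from the sample titles. From the deposited FPKM, log2(FPKM + 1) was fitted in limma 3.58.1 (R 4.3.3, eBayes with trend, all 4 groups in 1 fit). The 11854 IDs averaging 1 FPKM or more were tested, with Benjamini-Hochberg adjustment and calls at 0.05. The fold change of log2(FPKM + 1) understates changes of low genes, which hardly touches Cyp2e1. Cyp2e1 alone was tested by exact permutation over libraries. The fit was tested on simulated data. Each library was taken as 1 rat, since the paper names 3 liver samples a group and biological replicates. No rat or cage is named for a library. The spread was read as that between animals, and the 3 libraries a group limit its precision. Plots were drawn with matplotlib 3.10.9.

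Cyp2e1, the gene lists and the tests were chosen with earlier results of these data known. The genes to be named were Cyp2e1, members of pathway lists, the IDs ranked next to it, and the 5 IDs most like it and the 2 most opposite. The RefSeq gene table used here paired 0 of the 34194 IDs with a symbol. Lists of P450, pericentral, periportal, ethanol-metabolizing, DNA repair and liver cell type genes, including hepatocyte markers, were therefore not analysed here. For the same reason the ranked neighbours (1673 and 1653 mean FPKM) are not named, and only 2 similar and 2 opposite IDs were printed. Alternatives were other scalings, pseudocount, filters, block, prior, library weights and libraries left out.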

Additional observations from a re-analysis of the deposited data

How the results depend on the processing

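No alternative brought Cyp2e1 past an adjusted p of 0.05 in the 6 pairs of groups, in the injected livers against Control or in the F over the groups. Control against NDEA, the injected livers against Control and each comparison of a tea group with Control kept their direction in all alternatives run. Among the 3 comparisons within injected groups, the log2 fold change of FYT against NDEA was −0.13 with library weights and −0.30 without the 2 libraries least correlated with the others, and that of CFT-1 against FYT was −0.08778 with quantile normalization, and the cause was not tested. With each library left out in turn, as deposited, CFT-1 with NDEA ranged from −0.2129 to 0.3136, FYT with NDEA from −0.2957 to 0.2912 and the teas with each other from −0.2023 to 0.3075. Control with NDEA ranged from 0.2509 to 0.7708, CFT-1 with Control from −0.6091 to −0.239, FYT with Control from −0.6941 to −0.2614 and the injected livers with Control from −0.6248 to −0.4204. After scaling, the same 7 comparisons ranged from −0.1128 to 0.676, from −0.4195 to 0.3625, from 0.04353 to 0.4534, from 0.3741 to 1.157, from −0.5706 to −0.3574, from −0.9374 to −0.5269 and from −0.8113 to −0.5515, and FYT with NDEA was −0.08168 without NDEA+FYT replicate 1 and −0.09481 without NDEA+FYT replicate 2. Where a group was left with 2 libraries, the spread was pooled over groups. NDEA replicate 1 widened this pooled spread in comparisons that do not use the NDEA group as well. Without it, the scaled SE of FYT with Control fell from 0.376 to 0.238, with an adjusted p of 0.844 in limma's test. That of the injected livers with Control fell from 0.307 to 0.198, with an adjusted p of 0.995 in limma's test. The scaled fits with a library left out and the fits without 2 libraries were chosen after seeing the data.

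The replicate number as a block left the log2 fold change of Control with NDEA at 0.55 (SE 0.351) and changed no call. Deviations of same-numbered libraries correlated from −0.467 to 0.282, with 7 of 18 pairs above 0.1. Differently numbered libraries were not compared, so these values cannot decide whether the numbers mark pairs. The sample titles give no pairing, and the numbers were not taken as pairs. Cyp2e1 relative to hepatocyte markers was not run, since the RefSeq gene table paired no ID with a marker. The depth in reads is unknown, and groups of 3 limit what can be detected.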
